A study of Mus musculus with 2 samples.

Results

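The 31 genes described here make and check proteins in the endoplasmic reticulum (ER) and report on its state: its chaperones and folding enzymes, the stress sensors with the transcription factors below them, the degradation machinery and the translocon. They were chosen by gene symbol for their known roles, with earlier results of these data known, and all 31 matched among 55536 annotated genes. The tissue was the adrenal gland, taken from adult male mice aged 8 to 10 months from a cross between 5xFAD and CAST, and total RNA was sequenced. 5xFAD mice carry human transgenes with familial Alzheimer mutations, driven by the neuronal Thy1 promoter, and CAST is an inbred strain derived from wild mice. The labels do not say whether these animals inherited the transgenes, and reads from both parental genomes were counted against the 1 reference genome, mm10. The series held 2 libraries of this 1 group, biological replicates 1 and 2, with a separate biosample each but 1 shared donor entry, so the spread between them may be that of animals or of tissue pieces. With 1 group there was no comparison to test, and no p-value is given.

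Proteins bound for secretion, membranes or the lumen of organelles enter the ER through the translocon, are held by chaperones, and gain their disulfide bonds and glycans there. Those that fail to fold are drawn back to the cytosol and destroyed by the proteasome, which is called ER-associated degradation. When unfolded protein builds up, the sensors IRE1 (gene Ern1), PERK (Eif2ak3) and ATF6 start the unfolded protein response, which slows translation and, through XBP1, ATF6 and ATF4, raises the transcription of chaperone and degradation genes. The adrenal cortex holds some of its steroid enzymes, such as the 21-hydroxylase, in the smooth ER, and the chromaffin cells of the medulla pass hormone precursors and granins through the rough ER into granules.

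ATF6 and XBP1 act in part through a short promoter sequence, the ER stress response element (ERSE), in which CCAAT, bound by NF-Y, is followed after 9 free bases by CCACG. RefSeq promoter windows, from 250 bases before to 50 after each gene's start (GRCm38.p6), were found for 26 of the 31 genes, and not for Hyou1, Manf, Atf6, Derl1 and Sec61a1. Within these windows, read on both strands, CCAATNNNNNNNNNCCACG was present in 9 of 26 genes (34.6%), whereas 37 of all 27025 genes with a window held it (0.137%). A list of 140 other genes of the ER pathway had 107 with a window, and 1 of these, Calr4, held the motif. Alg12, a mannosyltransferase of the ER that is not on that list, held it too. The 10 matches are shown because the motif was more frequent in the 26 genes than in the other promoters. The genes were chosen by symbol, not by sequence. Their known roles, however, include the response that ATF6 and XBP1 drive, in part through this motif. The share is therefore not independent of the choice of genes, and is a description only. ERSE letters are in capitals, each line is 5′ to 3′ on the strand of the gene, and a match on the other strand reads CGTGG, 9 bases, ATTGG.
Calr (chr8:84847055-84847113, - strand): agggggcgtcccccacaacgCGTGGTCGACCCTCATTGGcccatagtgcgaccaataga
Canx (chr11:50325780-50325838, - strand): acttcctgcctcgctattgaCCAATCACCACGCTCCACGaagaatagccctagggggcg
Creld2 (chr15:88819500-88819558, + strand): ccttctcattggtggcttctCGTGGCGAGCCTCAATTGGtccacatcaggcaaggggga
Derl3 (chr10:75893222-75893280, + strand): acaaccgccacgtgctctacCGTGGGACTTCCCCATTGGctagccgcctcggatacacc
Dnajc3 (chr14:118937807-118937865, + strand): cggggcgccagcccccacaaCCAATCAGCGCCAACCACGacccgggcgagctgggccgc
Hsp90b1 (chr10:86705513-86705571, - strand): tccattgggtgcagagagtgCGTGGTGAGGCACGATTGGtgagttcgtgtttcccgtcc
Hsp90b1 (chr10:86705618-86705676, - strand): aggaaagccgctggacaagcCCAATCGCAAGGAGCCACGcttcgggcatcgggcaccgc
Hspa5 (chr2:34772020-34772048, + strand): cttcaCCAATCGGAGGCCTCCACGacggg
Pdia6 (chr12:17266471-17266529, + strand): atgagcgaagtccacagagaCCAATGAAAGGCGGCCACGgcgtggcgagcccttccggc
Syvn1 (chr19:6046512-6046570, + strand): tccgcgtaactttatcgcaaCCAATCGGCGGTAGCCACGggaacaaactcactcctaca

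Hsp90b1 held 2 matches, on opposite strands. The first printed, on the other strand, began 107 bases before the start, and the second, on the gene's strand, 212 bases before it. The matches of the other 8 genes began between 162 bases (Calr) and 44 bases (Syvn1) before the start. Those of Hspa5, Dnajc3, Canx, Pdia6 and Syvn1 lay on the gene's strand, and those of Calr, Creld2 and Derl3 on the other. The match of Hspa5 lay inside an exon that GENCODE M21 annotates for Hspa5 itself, whose first transcript there starts before the RefSeq start, and it is printed with shorter flanks. Letting the free stretch run from 8 to 10 bases added no gene.

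A second form, ERSE-II (ATTGGNCCACG), was present in Dnajb11 and Herpud1, against 0.0444% of all genes with a window. The Herpud1 match began 52 bases before the start. The Dnajb11 match began 7 bases after the start, in its first exon. They are shown with the letters of the motif in capitals.
Dnajb11 (chr16:22857847-22857867, + strand): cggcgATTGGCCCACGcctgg
Herpud1 (chr8:94386357-94386407, + strand): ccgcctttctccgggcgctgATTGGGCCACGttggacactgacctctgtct

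The XBP1-type element TGACGTGG was in none of the 26 windows and in 0.714% of all genes. The ATF4-type element TGATGNAA was in 1 window, that of Herpud1, and in 4.51% of all genes. Of these 4 motifs ERSE and ERSE-II end in CCACG, and the XBP1-type element ends in CGTGG, the same letters on the other strand. A match is a match of letters, not a site shown to be bound.

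**Figure D1:**
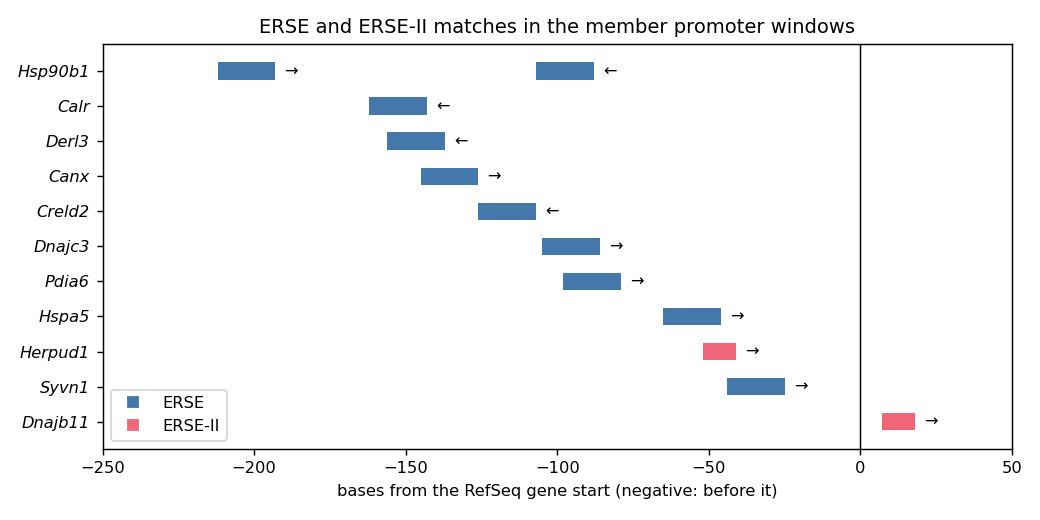
Position of each ERSE (blue) and ERSE-II (red) match, in bases from the RefSeq gene start, for the 11 genes with a match. Arrows give the strand of the motif relative to the gene. The ERSE matches began between 212 and 44 bases before the start, and the ERSE-II match of Dnajb11 is the only one drawn that lies after it.

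Annotated genes took 29204658 counts in replicate 1 and 26322473 in replicate 2. The 31 genes took 141153 and 131112 of these, which is 0.483% (95% exact binomial interval 0.481 to 0.486) and 0.498% (0.495 to 0.501). These intervals cover counting error only, since reads are not independent molecules. Levels below are in TPM, the share of transcripts after division by their length, which allows genes to be set side by side. Detection meant a level of at least 1 TPM in each library. Detected were 30 of the 31 genes, all but Derl3, where 25.5% of all annotated genes and 56.1% of nuclear protein-coding genes were. The median level of all 31 genes, Derl3 included, was 50.4 ± 1.60 TPM (SD, n = 2), and that of the detected nuclear protein-coding genes alone 12.4 ± 0.0778 TPM. In tissue RNA, a low level from few cells that express a gene strongly and from many that express it weakly cannot be told apart, nor can fewer cells of a type and less RNA per cell.

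All 7 adrenal cortex markers and all 6 chromaffin cell markers were detected, with medians of 2489 ± 366 and 205 ± 18.4 TPM. Cell types known for a large ER can enter such a dissection. Of 7 pancreatic acinar markers none was detected, with summed levels of 0.04 and 0 TPM, and 6 of them had no count in either library. Of 5 hepatocyte markers none was detected either. Of 7 plasma cell markers 4 were detected (Igkc, Igha, Sdc1 and Jchain), and together they summed to 27.0 TPM and 34.5 TPM in replicates 1 and 2. Adipocyte markers, all 5 detected, summed to 470 and 274 TPM, and macrophage markers, all 6 detected, to 243 and 169 TPM. The part of these cells in the levels and ratios below was not tested.

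The lumenal chaperones were among the most abundant of the 31. Hspa5 (chr2:34771970-34777547, mm10, + strand), which encodes BiP, the Hsp70 of the ER and the protein that keeps the sensors inactive, was at 197 TPM in replicate 1 and 212 TPM in replicate 2. Hsp90b1, the ER form of Hsp90 also called GRP94, was at 190 and 204 TPM. Hspa5 was the higher in each library, but the ranges of these genes over the libraries overlapped. The second quantifier described below put Hsp90b1 (169 TPM) above Hspa5 (164 TPM), so their order is not settled by these data. Hsp90b1 shares its strand with the overlapping Gm15344, at 1.63 and 1.83 TPM. Hyou1, the large Hsp70-like protein that exchanges the nucleotide of BiP, was at 73.8 and 72.3 TPM, and the Hspa5 level was 2.80 ± 0.184 times the Hyou1 level. Among detected nuclear protein-coding genes, 12358 in number, Hspa5 ranked 178th by level, Hsp90b1 185th and Hyou1 732nd.

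The co-chaperones, which hand clients to BiP or drive its ATP cycle, were much lower. Dnajc3 was at 20.7 and 22.9 TPM and Dnajb11, whose J domain brings unfolded clients to BiP, at 20.8 and 20.1 TPM, with overlapping ranges. Dnajb9, a J-domain protein that helps BiP to restrain IRE1, was at 15.4 and 15.3 TPM. Sdf2l1, a partner of Dnajb11, was at 8.28 and 8.61 TPM, the lowest of the 30 detected genes. Their median was 17.9 ± 0.240 TPM against 197 ± 10.1 TPM for the 3 lumenal chaperones, and no co-chaperone reached the level of any lumenal chaperone in either library. BiP mRNA stood at 13.4 ± 0.778 times Dnajb9 mRNA and 24.2 ± 0.574 times Sdf2l1 mRNA. With the second quantifier described below these ratios were 9.42 ± 0.325 and 19.7 ± 0.623, so the SDs do not cover the choice of quantifier.

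The lectin chaperones hold glycoproteins by a glucose left on their glycan. Calr (chr8:84841850-84846934, mm10, - strand), the soluble calreticulin, was at 234 and 217 TPM, the highest of the 31 genes in both libraries. Canx, the membrane-bound calnexin, was at 161 and 162 TPM. The ranges did not overlap, and the ratio of Calr to Canx was 1.40 ± 0.0742.

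Of the disulfide isomerases, P4hb, the classic protein disulfide isomerase and a subunit of collagen prolyl hydroxylase, was at 188 TPM in both libraries. Pdia3, which works with the lectin chaperones, was at 139 and 135 TPM. Pdia6 was at 57.9 and 60.2 TPM and Pdia4 at 31.9 and 33.9 TPM. These 4 genes kept the same order in both libraries with no overlap, and P4hb stood at 5.73 ± 0.243 times Pdia4.

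Manf and Creld2 encode small ER proteins that are released under stress. Manf was at 102.5 and 117 TPM, and Creld2 at 15.7 and 14.8 TPM. The 7.21-fold ratio of their levels had an SD of 0.973 over the libraries, and the second quantifier gave 5.40 ± 1.03. Manf lies over other genes: Rbm15b on the same strand, at 8.69 and 9.05 TPM, and Dcaf1 on the opposite strand. The library kit keeps the strand, so the same-strand neighbour is the one whose reads could be shared.

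The 3 sensors differed widely in level. Ern1 (chr11:106394650-106487852, mm10, - strand), the kinase and RNase IRE1 alpha, was at 63.7 and 75.7 TPM. Atf6, which is cut in the Golgi to free a transcription factor, was at 15.2 and 15.1 TPM. Eif2ak3, the kinase PERK that phosphorylates eIF2 alpha, was at 8.96 and 10.6 TPM. Ern1 was the highest sensor in both libraries, at 4.61 ± 0.580 times Atf6 and 7.11 ± 0.00781 times Eif2ak3, and its level reached 1.21 ± 0.0948 times that of Xbp1, the RNA its RNase splices. With a second quantifier, run on the reads rather than on alignments per the library notes, Ern1 was the highest sensor too and its ratio to Eif2ak3 was 4.71 ± 0.390, but Eif2ak3 (14.1 TPM) then stood above Atf6 (13.0 TPM).

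Among the transcription factors, Xbp1 (chr11:5520659-5525893, mm10, + strand) was at 55.7 and 59.2 TPM. Atf4, which is translated when eIF2 alpha is phosphorylated, was at 56.0 and 60.3 TPM. Ddit3, which encodes the pro-apoptotic factor CHOP, was at 35.4 and 33.8 TPM. The Xbp1 and Atf4 ranges overlapped and their ratio was 0.988 ± 0.00910, while Ddit3 lay below both in each library. Ddit3 has 2 entries under its symbol, of which the second had no count, and the coding gene Mars (29.2 and 33.6 TPM) overlaps it on the opposite strand. The 6 sensors and factors together had a median of 46.0 ± 0.693 TPM, and the 13 folding genes (chaperones, co-chaperones, lectins and isomerases) a median of 73.1 ± 1.05 TPM, a ratio of 1.59 ± 0.0467.

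Among the degradation genes, Sel1l, the adaptor that carries clients to the ubiquitin ligase, was at 54.6 and 60.1 TPM, and Syvn1, the ligase HRD1, at 19.7 and 22.8 TPM, so the adaptor mRNA stood at 2.71 ± 0.0954 times the ligase mRNA. Herpud1, a stress-induced part of the same complex, was at 42.0 and 46.8 TPM. Edem1, which helps to mark misfolded glycoproteins by trimming mannose, was at 16.0 and 14.1 TPM.

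The 3 derlins, membrane proteins of the exit channel, had the same order in both libraries. Derl1 was at 35.5 and 33.9 TPM and Derl2 at 23.9 and 23.8 TPM, a ratio of 1.46 ± 0.0442. Derl3 (chr10:75893413-75895941, mm10, + strand) was at 0.40 and 0.80 TPM, from 11 and 15 counts. Derl3 was thus the gene of the 31 below 1 TPM, although its promoter window holds the ERSE printed above with those of Hspa5 and Calr.

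For the translocon, Sec61b was at 84.0 and 86.2 TPM and Sec61a1, the channel itself, at 76.3 and 83.2 TPM. Ssr1, the alpha subunit of the translocon-associated protein complex, was at 51.6 and 49.3 TPM. Their median of 79.8 ± 4.83 TPM was close to the 73.1 TPM of the folding genes.

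**Figure D2:**
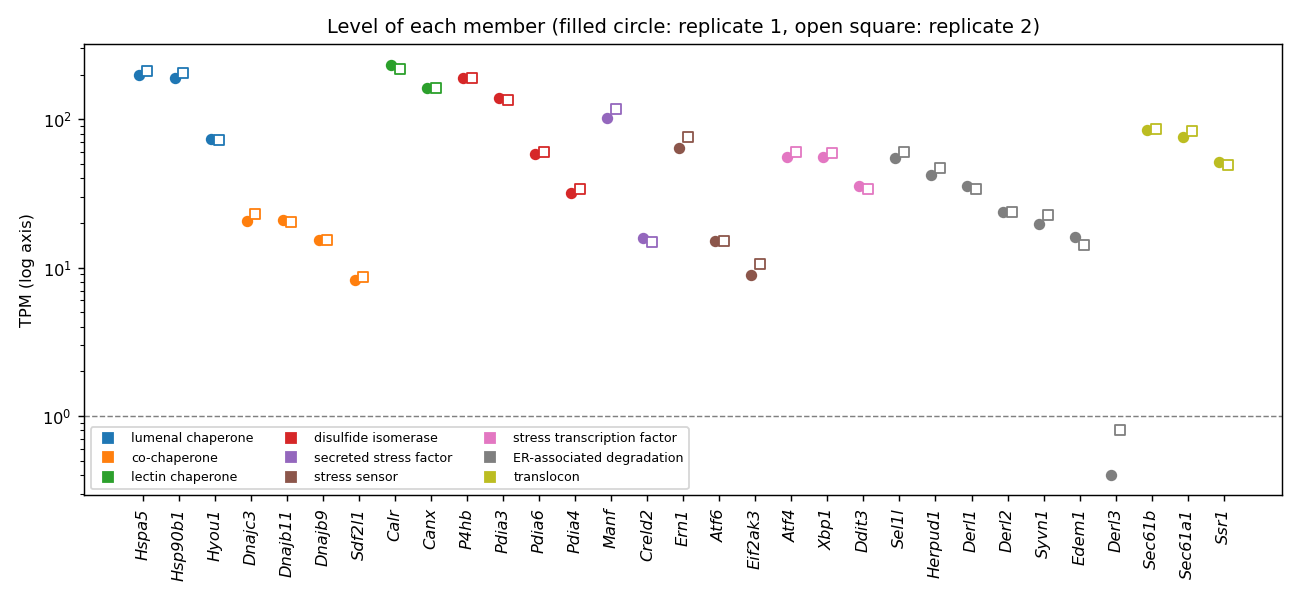
TPM of each of the 31 genes (log axis) in replicate 1 (filled circles) and replicate 2 (open squares), coloured by role and ordered by level within a role. The dashed line marks 1 TPM. Derl3 is the only gene below it, and Calr, Hspa5 and Hsp90b1 are the highest.

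Ordered by mean TPM, 12 of the 30 neighbouring places could not be told apart because the ranges of the genes over the libraries overlapped. These were Hspa5 and Hsp90b1, Hyou1 and Ern1, the run from Pdia6 through Atf4 and Xbp1 to Sel1l, that from Derl1 through Ddit3 to Pdia4, that from Dnajc3 through Syvn1 to Dnajb11, and that from Dnajb9 through Creld2 and Atf6 to Edem1. Overlap does not mean that the order changed: Hspa5 stood above Hsp90b1, Atf4 above Xbp1, Derl1 above Ddit3 and Dnajc3 above Syvn1 in each library. By the second quantifier's mean TPM, however, Hsp90b1 stood above Hspa5 and Xbp1 above Atf4. Range overlap is not the only limit. The second quantifier put Canx (163 TPM) above P4hb (148 TPM), Sec61b (99.5 TPM) above Manf (76.3 TPM) and Ssr1 (54.8 TPM) above Sel1l (43.4 TPM). With the first, the ranges of each of these pairs did not overlap, so the remaining places are not all settled. Over the 31 genes the rank correlation between the libraries was 0.994, a description only, since the libraries share tissue and pipeline. The median coefficient of variation of the 30 detected genes was 4.23%. It was highest for Ern1 (12.2%) and lowest for Derl2 (0.0593%).

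The 9 genes with an ERSE had a median of 59.1 ± 1.62 TPM and the 17 with a window but no ERSE 44.4 ± 3.39 TPM. The ranges of mean level overlapped almost entirely, 0.600 to 225 TPM with and 8.45 to 188 TPM without the motif. Levels thus did not separate the genes by the motif. P4hb, at 188 TPM, had no match, and Derl3, at 0.600 ± 0.283 TPM, had.

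Other genes of the pathway, 140 in number and listed by role, showed the setting. Detected were 129 of them, and the median of all 140 was 22.8 ± 0.230 TPM, below the 50.4 TPM of the 31. Medians of a role, here and below, cover all its genes, detected or not. In folding, 21 of 23 were detected (median 15.9 ± 2.00 TPM), led by the prolyl isomerase Ppib (101 TPM), Cnpy2 (58.9 TPM) and the collagen chaperone Serpinh1 (44.4 TPM), while Calr4 and Clgn, the testis relative of calnexin, were not detected. In disulfide exchange 14 of 17 were detected (median 16.4 ± 0.481 TPM), led by Txndc5, Tmx2 and Erp29, and not Pdia2, Erp27 and Pdilt. Among further sensors and signalling genes 15 of 18 were detected (median 17.3 ± 0.145 TPM), led by Tmbim6 (141 TPM), an ER membrane protein that restrains IRE1, Creb3 (49.6 TPM) and Rtcb (47.2 TPM), the ligase that joins the spliced Xbp1 RNA. Ern2, the epithelial relative of Ern1, was not detected, nor were Creb3l3 and Creb3l4.

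Quality control and processing genes were detected throughout. All 22 further degradation genes (median 26.4 ± 1.64 TPM) were detected, led by Vcp, the ATPase that pulls clients out of the membrane, at 100.4 TPM. All 20 glycosylation genes were (median 46.5 ± 0.993 TPM), led by Dad1 (143 TPM), Rpn1 (111 TPM) and Rpn2 (103 TPM) of the oligosaccharyltransferase. All 23 translocation genes were too (median 34.5 ± 2.42 TPM), led by Srp14, Spcs1 and Spcs2. The known targets of ATF4 and CHOP were lower than the other roles, with 14 of 17 detected and a median of 7.50 ± 1.01 TPM. Slc3a2, an amino acid transporter chain, led them at 71.3 TPM, and Atf3, Trib3 and Slc7a11 were not detected. Trib3 missed the limit only in replicate 1 (0.94 and 1.28 TPM) and Atf3 only in replicate 2 (2.79 and 0.95 TPM). With the second quantifier Trib3 was above the limit in both libraries, at 1.22 and 1.14 TPM, while Atf3 and Slc7a11 were not.

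Against chaperones of other compartments, the 13 folding genes had a median 1.71 ± 0.167 times that of 20 cytosolic heat shock genes (42.8 ± 3.56 TPM, all detected). This ratio was 1.46 ± 0.0918 with the second quantifier. The highest of the heat shock genes, Hsp90ab1, at 472 TPM, stood above Calr. The 14 mitochondrial chaperones and proteases, all detected, had a median of 37.6 ± 0.0177 TPM, with Lonp1 highest at 226 TPM. The 31 proteasome subunits, all detected, had a median of 52.9 ± 0.332 TPM, with Psmb4 highest at 113 TPM, and the median of the 31 ER genes was 0.954 ± 0.0362 times theirs.

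**Figure D3:**
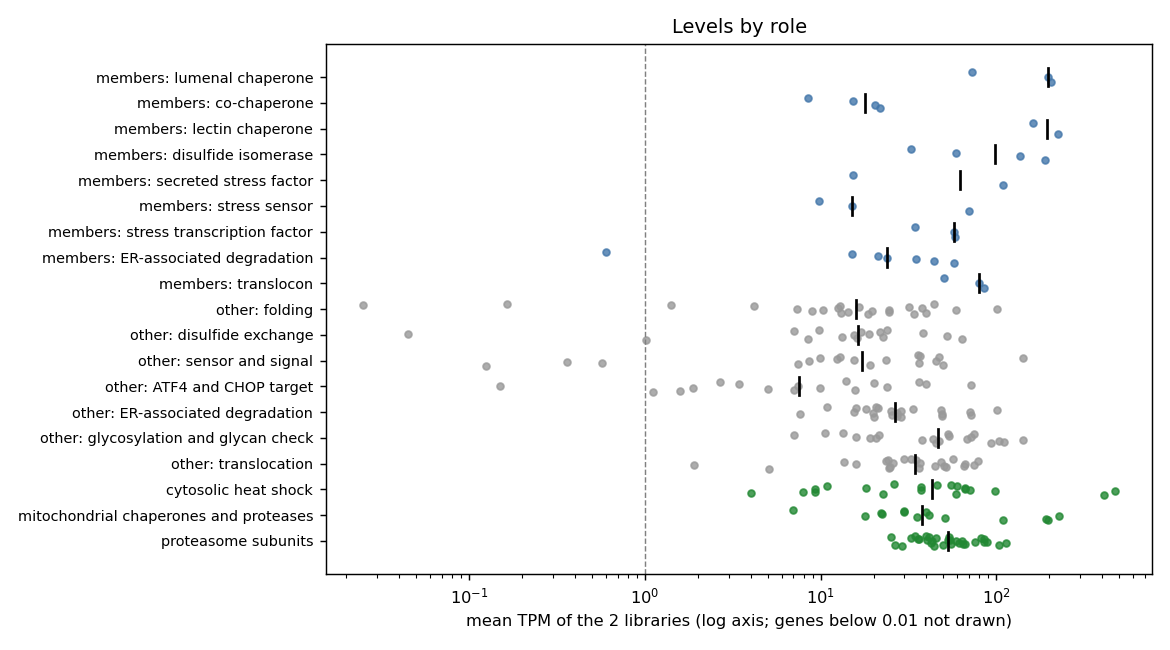
Mean TPM over both libraries (log axis) of the 31 genes by role (blue), the other ER pathway genes (grey) and the 3 comparison lists (green). Each point is a gene, bars are the mean over the libraries of the list's median, and genes below 0.01 TPM are not drawn. The lumenal (197 TPM) and lectin (193 TPM) chaperones have the highest medians drawn, and the ATF4 and CHOP targets the lowest (7.50 TPM).

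The libraries differed little in these genes. Ratios of replicate 2 to replicate 1 were taken on counts with TMM-scaled totals, for genes with a mean count of 20 or more, which leaves out Derl3. Of the other 30 genes 18 were higher in replicate 2 and 12 lower, where 48.7% of 16383 genes were higher. None of the 30 had a log2 ratio beyond 0.32 either way, which is a ratio of 5 to 4, where 19.3% of all genes did. Among genes with a mean count of 100 or more, which holds all 30, that share was 10.4%. Among 10529 genes with a count as high as the lowest of the 30, the middle 90% of log2 ratios ran from -0.28 to 0.26, and all 30 lay inside. The median log2 ratio of the 30 was 0.03, and that of all genes -0.01.

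Both kinase sensors had the highest ratios among the 30. Eif2ak3 had a log2 ratio of 0.24 ± 0.06 (counting SE) and Ern1 of 0.19 ± 0.02, while Atf6 had -0.03 ± 0.04. Manf (0.17 ± 0.04), Syvn1 (0.13 ± 0.05) and Dnajc3 (0.13 ± 0.04) came next. These 5 genes were higher in replicate 2 by more than 2 counting errors. So were Hspa5, Hsp90b1, Sec61a1, Sel1l, Xbp1 and Atf4, at smaller ratios. Counting errors say nothing of the spread between animals. A snoRNA gene, Gm23346, lies within Eif2ak3 on the same strand, at 3.88 and 9.77 TPM.

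The lowest log2 ratios were those of Creld2 (-0.11 ± 0.09), Calr (-0.10 ± 0.02), Derl1 (-0.08 ± 0.04), Ddit3 (-0.07 ± 0.07) and Dnajb11 (-0.07 ± 0.06). Of these Calr and Derl1 lay beyond 2 counting errors. Hspa5 had 0.10 ± 0.02 with TMM totals and 0.00 when scaled to the spike-ins described next, where Calr had -0.20.

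Added ERCC spike-in RNA took 0.471% of the gene counts in replicate 1 and 0.506% in replicate 2. Scaled to it, the median log2 ratio of all genes was -0.10, and 6 of the 30 genes were higher in replicate 2 and 24 lower, where 27.6% of all genes were higher. A change of totals shifts every gene by the same amount, so the place of the 30 among all genes, 0.03 above the median, cannot change with it. The 5 genes with the highest ratios stayed above 0, Eif2ak3 at 0.14, Ern1 at 0.10, Manf at 0.07 and Syvn1 and Dnajc3 at 0.03. Of these only Eif2ak3 and Ern1 were still more than 2 counting errors above 0.

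**Figure D4:**
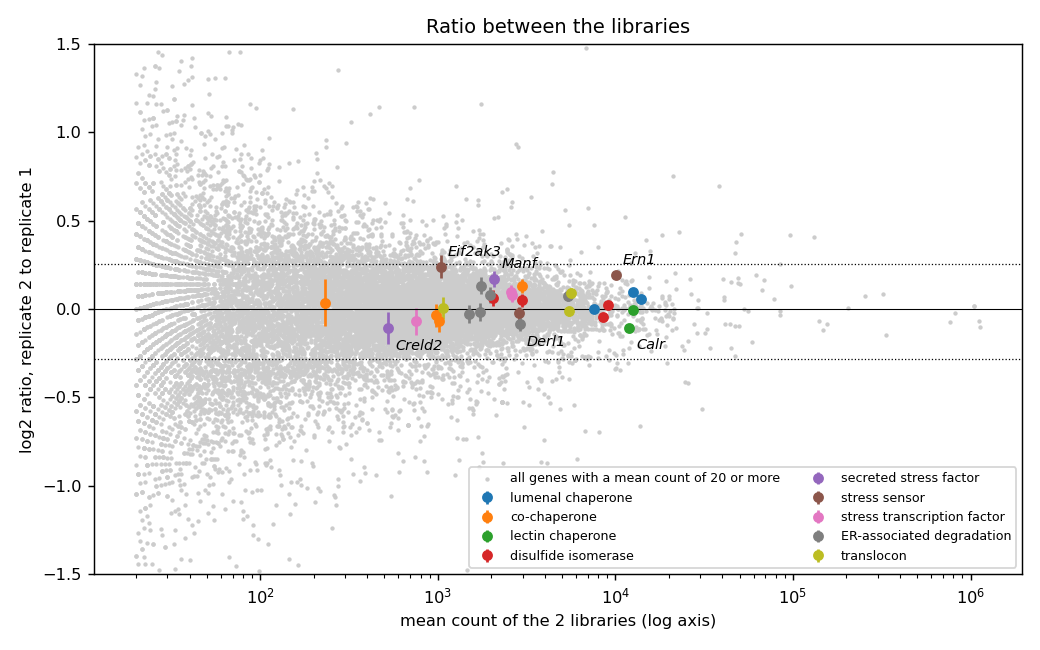
Log2 ratio of replicate 2 to replicate 1 against mean count (log axis), for all genes with a mean count of 20 or more (grey; ratios beyond the axis are not drawn) and the 30 genes described, coloured by role with counting SE. Dotted lines are the 5th and 95th percentiles, -0.28 and 0.26, of the 10529 genes with a count as high as the lowest of the 30. All 30 points lie between them.

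Beyond a log2 ratio of 0.32, where none of the 30 genes lay, were 8 of the 17 targets of ATF4 and CHOP, 2 of them higher in replicate 2 (Cebpb and Chac1) and 6 lower. The share of all genes beyond it was 19.3%, or 10.4% at a mean count of 100 or more, and 5 of the 8 had a mean count below 100. With the second quantifier Slc7a11 went from -0.42 to 0.05 and Nupr1 from -0.42 to -0.19, so neither was beyond it. Trib3, also among the 6 lower, had -0.34 ± 0.31 on counts but 0.41 with log2 of TPM + 0.1, so its direction was not settled. The difference from the 30 genes was not tested. Cebpb, a transcription factor, went from 29.8 to 42.8 TPM (0.50 ± 0.06), Psat1, of serine synthesis, from 46.7 to 32.3 TPM (-0.45 ± 0.04), and Atf3 from 2.79 to 0.95 TPM (-1.56 ± 0.26). Atf4 itself had a ratio of 0.08 ± 0.04 and Ddit3 lay at -0.07. Of 117 genes of the remaining roles with enough counts 3 were beyond 0.32, all lower in replicate 2: Fkbp11, Sec61g and Tram2. The Sec61g value does not hold with the second quantifier, which gave 719 and 667 counts in place of 133 and 90.2 and a log2 ratio of 0.08 in place of -0.42. Chac1, Nupr1, Fkbp11, Sec61g and Tram2 are named after their values were seen.

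Transcript make-up was read from the deposited transcript tables. The median share of a gene's TPM in protein-coding transcripts was 88.2 ± 0.0418%, and 23 of the 31 genes had more than 80% there. By the mean of the libraries Sel1l was the only gene under 50%, with 50.8% in replicate 1 and 48.7% in replicate 2, while its retained-intron transcripts held 31.6% and 32.7%. The second quantifier gave Sel1l 62.0 ± 1.81% coding, and listed the short Sel1l-202, at 9.63 and 11.2 TPM with the first, at 0 in both libraries.

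In 5 genes the leading transcripts each held 20% or more. Canx-201, the coding form, held 69.1% and 68.0%, and the non-coding Canx-202 25.3% and 25.8%. P4hb-201 held 57.3% and 60.1% and the short non-coding P4hb-202 34.3% and 35.2%. Manf-201 held 57.7% and 58.0% and the retained-intron Manf-205 37.5% and 36.9%. These shares were nearly equal in the libraries, but the second quantifier put P4hb-202 at 3.76 and 28.3 TPM where the first had 64.6 and 66.3 TPM, and Manf-205 at 4.03% and 3.70% of the gene. The P4hb and Manf shares thus differed between the quantifiers.

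Hyou1 was divided between coding forms of nearly the same length. Hyou1-201 held 39.3% and 49.5%, and Hyou1-206 31.1% and 24.0%. The second quantifier gave Hyou1-201 38.95 TPM in replicate 1 and 5.31 TPM in replicate 2, and Hyou1-206 6.42 and 40.5 TPM, so it named a different leading form in each library. Ssr1 was shared by the coding forms Ssr1-201 (33.9% and 36.4%), Ssr1-204 (26.8% and 35.7%) and Ssr1-202 (24.4% and 22.4%). With the second quantifier Ssr1-202 led at 53.9% and 55.7% and Ssr1-204 held 9.26% and 11.3%. The division of Hyou1 and Ssr1 among their forms was therefore not settled. The gene level of Hyou1 was 73.1 ± 1.05 TPM with the first quantifier and 58.9 ± 1.58 TPM with the second.

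In the transcription factors 1 coding transcript led. Xbp1-201 held 66.9% and 69.5%, and the coding Xbp1-204 14.3% and 12.3%. Atf4-201 held 85.9% and 88.2%, with the rest in the retained-intron Atf4-203. Ddit3-201 held 86.9% and 80.7%, and its retained-intron Ddit3-202 11.9% and 19.3%. IRE1 removes a very short stretch from the Xbp1 message. The shortest intron among the 4 Xbp1 transcripts of GENCODE M21 has 300 bases, so these tables have no entry for the form that IRE1 makes, and its share was not read from them.

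**Figure D5:**
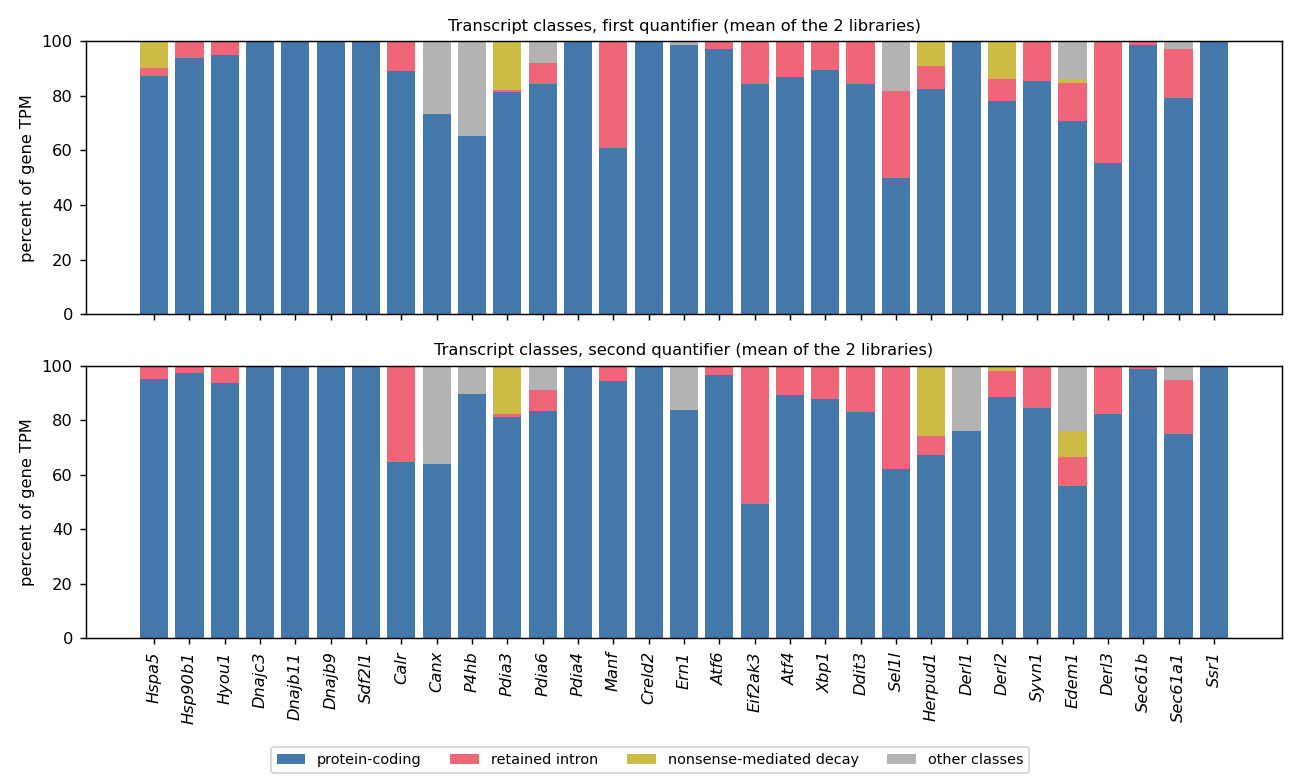
Percent of each gene's TPM in protein-coding, retained-intron, nonsense-mediated decay and other transcripts, as the mean of the 2 libraries, with the first quantifier (upper) and the second (lower). Most genes lie above 80% coding in the upper plot. Manf and P4hb have a larger coding share in the lower plot, Calr and Eif2ak3 a smaller one.

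At the level of whole genes the quantifiers differed less. Of the 30 detected genes 26 were within a log2 difference of 0.32 and 22 were lower with the second, and the median over genes of the ratio of the second to the first was 0.914. The 4 outside were Manf (0.696 times), Sel1l (0.757), P4hb (0.788) and Eif2ak3 (1.43). Chosen after its values were seen, Calr had a coding share of 89.3 ± 1.49% with the first quantifier and 64.6 ± 0.634% with the second, at gene levels of 225 ± 11.5 and 241 TPM. Eif2ak3 had 84.5 ± 3.90% and 49.3 ± 7.62%, and the second quantifier gave 39.3% and 33.2% of it in replicates 1 and 2 to the short retained-intron form Eif2ak3-203, which the first listed at 0 TPM in both libraries.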

How the data were processed

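Total RNA of 2 libraries (1 group) was measured after ribosomal RNA reduction, in a strand-specific kit, from 300 ng of RNA with ERCC spike-ins, per the labels. For each gene the authors deposited an expected count, a TPM and an FPKM value, made on mm10 and annotation GENCODE M21, as the library notes say. Per the file headers, a deposited transcript table gives the same units and the percent of the gene that a transcript holds. Another deposited table, of estimated counts and TPM made from the reads, is the second quantifier here and was summed per gene. Which aligner and quantifiers made them is not given in the sources used here. TPM was scaled over all 81881 features of the gene table.

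Entries that share a symbol were summed. Expected counts were rounded for ratios, which used TMM totals of edgeR 4.0.16 in R 4.3.3 (factors 0.997 and 1.00), a prior count of 0.5 and a mean count of at least 20. The ratio step was run on simulated counts that held counting error only. That is a check of the arithmetic, and not of the spread between the libraries. Standard errors of ratios cover counting only. Tables were joined with Python 3.11.15 and pandas 2.3.3. Named were all 31 genes, the 3 highest and the undetected of each other role, the highest of each comparison list, and the 5 highest and 5 lowest ratios. Transcripts were described where the 2 leading forms each held 20% or more, where under 50% was coding, and for the 3 transcription factors. The genes, lists and rules were chosen with earlier results of these data known. A RefSeq promoter window was read for 26 genes. In 21 of them the first bases after the start were found in a GENCODE transcript in the same orientation, and in 0 in the reverse.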

Additional observations from a re-analysis of the deposited data

How the results depend on the processing

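With 2 libraries of 1 group, levels rest on an SD from 2 values, and no paired analysis was possible because there was 1 group. The number detected stayed at 30 with TPM limits of 5 and 0.5, with FPKM and with the second quantifier, and was 30 in each library. With the second quantifier the median TPM was 45.1 for the 31 genes, 58.9 for the folding genes and 43.2 for the sensors and factors. FPKM gave 71.0 for the folding genes and 44.7 for the sensors and factors. Rescaled over nuclear protein-coding genes, these medians became 151, 218 and 137 TPM, and the share of counts 0.695%. The second quantifier moved 26 of the 31 TPM values by more than their SD. Ratios of levels moved too, that of Derl1 to Derl2 to 1.87 ± 0.0139 and that of the folding genes to the sensors and factors to 1.37 ± 0.0685. Sel1l to Syvn1 became 2.34 ± 0.145, P4hb to Pdia4 5.16 ± 0.643 and Calr to Canx 1.47 ± 0.0755. The ratio of Hspa5 to Hyou1 stayed near, at 2.79 ± 0.188. With 2 libraries, leaving 1 out cannot move a mean by more than the SD, so it is no check of the levels. With spike-in totals the median log2 ratio was -0.068 and 6 genes were higher in replicate 2, and 22 of 30 ratios moved by more than their counting SE. With size factors of DESeq2 1.42.0, plain totals or the second quantifier none of the 30 did, and with log2 of TPM + 0.1 4 did. With no count filter 1 gene lay beyond a log2 ratio of 0.32, Derl3, from 11 and 15 counts. The coding share was 88.6% with the second quantifier. Ratios need both libraries, so leaving 1 out gives none. A check of the proteins' C termini was not run.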

Other observations

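The ERSE letters were also looked for among all genes, a step chosen after the motif was counted in the 31. Of the 37 genes with a match 33 had a symbol in the gene table, of which 24 are not among the 31 genes described. Detected were 7 of these 24: Hnrnpa3, an RNA-binding protein, at 123 ± 0.148 TPM, the acetyl-CoA carboxylase Acacb at 19.9 ± 3.50 TPM, the adenylyl cyclase Adcy3 at 12.9 ± 0.849 TPM, Pan2, a subunit of a deadenylase, at 11.5 ± 0.0566 TPM, Xlr3b at 6.66 ± 1.86 TPM, Alg12, a mannosyltransferase of glycan assembly in the ER, at 6.23 ± 0.318 TPM, and Spats2l at 1.65 ± 0.156 TPM. Of all annotated genes 25.5% were detected. The median of the 24 was 0.15 TPM in replicate 1 and 0.11 TPM in replicate 2, where that of all annotated genes was 0 TPM in both. The median of the 9 ERSE genes described above was 57.9 and 60.2 TPM. Those 9 were chosen for known roles in the ER, so the contrast with the 24 is a description only. Among the undetected ones, Esp15, Esp16, Esp18 and Esp36 were listed at 0 TPM in both libraries.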
